A study of Mus musculus with 8 samples.

Results

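The transcripts of 7 intermediate filament genes were followed in cultured mouse peritoneal mesothelial cells (MCs), the cells that line the abdominal cavity. The genes are the simple keratins Krt7, Krt8, Krt18 and Krt19 and the vimentin-type filament genes Vim, Des and Nes. They were taken by symbol, and all 7 had a row among the 13687 genes deposited and passed the filter on low values. Primary MCs came from trypsin-digested parietal peritoneum of CAV1-deficient mice (CAV1-/-, given as Cav-1- in the labels, strain B6.Cg-CAV1tm1mls/J) and their WT littermates. Ages are not given in the sources used here. Cultures were grown to confluence and then left static or stretched mechanically for 24 h, and each of 2 WT and 2 CAV1-/- animals gave 1 static and 1 stretched culture, so that there were 4 groups of 2 cultures. The study states more replicates per condition for this experiment than were analysed here. The allele is carried in the whole animal, and all cells were cultured before RNA was taken. Cultures are named below by genotype, condition and replicate, and replicate 1 of the static and of the stretched group of a genotype is the same animal.

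Intermediate filaments are the rope-like part of the cytoskeleton that gives a cell its resistance to strain. Keratin filaments are obligate pairs of a type I chain (here Krt18 and Krt19) with a type II chain (here Krt7 and Krt8), whereas vimentin and desmin, the type III proteins, can assemble with themselves and nestin, a type IV protein, needs a partner such as vimentin. MCs are unusual among adult cells in holding simple keratins and vimentin side by side, and the loss of keratin with retention or gain of vimentin is a classic readout of the mesothelial-to-mesenchymal transition (MMT).

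The values are reads per gene, normalized by the authors with the TMM method and given as CPM of the TMM-adjusted library total, so that the columns do not sum to the same total. CPM below stands for these TMM-normalized values. The libraries held between 9777738 and 21203938 recovered reads, and 3 reads, taken as the smallest detectable amount, correspond to between 0.146 and 0.308 CPM; this covers counting error only. Genotype and stretch were compared with limma on log2(value + 1), a scale that understates changes of low genes, with Benjamini-Hochberg adjustment over the 13665 genes that passed the filter and a threshold of 0.05. The p-values measure the spread between these cultures, and the smallest two-sided p that exact permutation of 2 and 2 cultures allows is 0.333. In bulk RNA, fewer cells of a type and less RNA per cell cannot be told apart. Cav1 itself was lower in every CAV1-/- culture (12.8 to 34.5 CPM) than in every WT culture (247 to 764 CPM). The mesothelial label was checked on 12 marker genes, of which 11 had a row. Wt1, a transcription factor of mesothelium, was at 74.9 to 138 CPM in all 8 libraries, and the 11 markers summed to 2507 to 3372 CPM in WT and 824 to 1018 CPM in CAV1-/- cultures.

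Krt7, Krt8 and Krt18 lie on chromosome 15 and had no overlap between the genotypes, with the CAV1-/- cultures lower, so the sequence before their starts is shown beside that of Vim, whose genotypes overlapped. The runs are the 250 bases before the RefSeq start of each gene on GRCm38.p6, 5′ to 3′ on the strand of the gene. Capitals mark matches on either strand to the E-box CAGGTG, which reads CACCTG on the other strand and is bound by SNAI and ZEB repressors, to the GC box GGGCGG, which reads CCGCCC on the other strand and is bound by SP factors, and to the TATA box TATAAA, which reads TTTATA on the other strand. The Krt8 run ends inside its TATA match, which continues past the RefSeq start. Krt7 is at chr15:101412153-101412402 on the plus strand, Krt8 at chr15:102004343-102004592 on the minus strand, Krt18 at chr15:102027966-102028215 on the plus strand and Vim at chr2:13574061-13574310 on the plus strand.
Krt7: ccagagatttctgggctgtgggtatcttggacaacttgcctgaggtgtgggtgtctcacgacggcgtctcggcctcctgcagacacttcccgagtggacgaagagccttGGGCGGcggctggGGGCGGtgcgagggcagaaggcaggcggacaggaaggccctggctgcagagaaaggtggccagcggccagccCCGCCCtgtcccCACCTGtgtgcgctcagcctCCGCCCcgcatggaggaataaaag
Krt8: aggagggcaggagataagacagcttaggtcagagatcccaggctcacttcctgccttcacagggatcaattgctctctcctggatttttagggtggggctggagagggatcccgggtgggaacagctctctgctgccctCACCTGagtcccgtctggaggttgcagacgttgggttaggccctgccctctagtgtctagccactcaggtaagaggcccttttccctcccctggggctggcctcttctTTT
Krt18: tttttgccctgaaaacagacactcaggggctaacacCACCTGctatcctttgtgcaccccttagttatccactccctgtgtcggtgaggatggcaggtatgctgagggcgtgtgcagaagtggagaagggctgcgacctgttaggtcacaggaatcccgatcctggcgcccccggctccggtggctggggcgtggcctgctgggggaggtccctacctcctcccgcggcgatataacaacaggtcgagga
Vim: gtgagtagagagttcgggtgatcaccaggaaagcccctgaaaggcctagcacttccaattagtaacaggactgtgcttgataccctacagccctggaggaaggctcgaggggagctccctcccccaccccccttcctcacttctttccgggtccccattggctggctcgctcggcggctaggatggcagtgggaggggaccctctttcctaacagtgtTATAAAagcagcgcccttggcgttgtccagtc

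In windows from 250 bases before to 50 bases after the start, RefSeq entries matched 6 of the 7 genes (all but Krt19). Each of the 3 keratin windows held 1 E-box match, beginning at -44 in Krt7, -111 in Krt8 and -214 in Krt18, counted from the start, and no match was found in Vim, Des or Nes. Of all 32851 windows in the table, 20.2% held this E-box. The GC box was found 4 times in Krt7 and 2 times each in Des and Nes (35.7% of all windows hold it), and the TATA box in Vim at -32 and in Krt8 at -3 and -1, where 2 matches on opposite strands overlap (13.6% of all windows). The AP-1 site TGANTCA (7.81% of all windows) and the TEAD site GGAATG (14.7%) were in none of the 6 windows. The window of Krt14, a further keratin that was lower in CAV1-/- cultures and is described below, held no E-box match and 1 TEAD match, at -66. Such matches describe the letters of the window and are not binding sites.

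Krt7 (ENSMUSG00000023039, GRCm38 chr15:101411043-101430313, plus strand) is a type II keratin of simple and glandular epithelia. It was at 328 and 525 CPM in the static and 140 and 408 CPM in the stretched WT cultures, against 31.9 and 23.4 CPM in the static and 18.1 and 10.2 CPM in the stretched CAV1-/- cultures. The 2 genotypes did not overlap, and the nearest cultures were CAV1-/- static 1 and WT stretch 1. Krt7 spread more within WT than within CAV1-/-, where the animals differed in their mean by 1.11 and 0.60 on the log2 scale.

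Krt8 (ENSMUSG00000049382, GRCm38 chr15:101996698-102004482, minus strand) is the type II keratin of nearly all simple epithelia and the usual partner of Krt18. WT cultures had 224 and 259 CPM when static and 244 and 289 CPM when stretched. CAV1-/- cultures had 33.5 and 41.2 CPM when static and 38.9 and 39.1 CPM when stretched. The groups of the genotypes were far apart and tight within, so that the animals of a genotype differed by at most 0.23 and no culture pair of an animal by more than 0.21, both as log2 differences.

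Krt18 (ENSMUSG00000023043, GRCm38 chr15:102028180-102032027, plus strand), the type I partner of Krt8, was at 173 and 181 CPM in static and 231 and 206 CPM in stretched WT cultures. In CAV1-/- cultures it was at 54.6 and 55.3 CPM when static and 93.3 and 50.9 CPM when stretched. Again no CAV1-/- culture reached a WT culture, and CAV1-/- stretch 1 came closest.

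Krt19 (ENSMUSG00000020911, GRCm38 chr11:100140810-100148665, minus strand) is the smallest type I keratin, with a very short tail. Its values were 65.9 and 24.7 CPM in static WT, 37.3 and 21.7 CPM in stretched WT, 49.0 and 2.67 CPM in static CAV1-/- and 69.4 and 4.38 CPM in stretched CAV1-/- cultures. The genotypes overlapped fully, with the highest and the lowest cultures both CAV1-/-. The CAV1-/- animals differed by 3.74 on the log2 scale, far more than the 0.80 that separated at most the cultures of 1 animal.

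Vim (ENSMUSG00000026728, GRCm38 chr2:13573927-13582826, plus strand) encodes vimentin, the filament of mesenchymal cells, leukocytes and MCs. It was at 2095 and 2119 CPM in static WT, 1688 and 2336 CPM in stretched WT, 2533 and 1527 CPM in static CAV1-/- and 2234 and 1826 CPM in stretched CAV1-/- cultures. The CAV1-/- values ran on both sides of the WT values, and the whole range over the 8 libraries was 0.73 on the log2 scale, against 3.07 for Krt8 and 5.56 for Krt7.

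Des (ENSMUSG00000026208, GRCm38 chr1:75360329-75368579, plus strand) encodes desmin, the filament of muscle. Static and stretched cultures of the same animal had nearly the same value: 324 and 319 CPM in WT animal 1, 69.4 and 69.6 CPM in WT animal 2, 383 and 311 CPM in CAV1-/- animal 1 and 185 and 186 CPM in CAV1-/- animal 2. The animals differed by up to 2.30 on the log2 scale and the genotypes overlapped.

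Nes (ENSMUSG00000004891, GRCm38 chr3:87971078-87980451, plus strand) encodes nestin, a filament of progenitor and proliferating cells. It was at 10.2 and 33.2 CPM in static WT, 12.5 and 45.5 CPM in stretched WT, 42.2 and 28.3 CPM in static CAV1-/- and 60.0 and 36.2 CPM in stretched CAV1-/- cultures. WT animal 1 stood apart as the lowest, and the remaining WT animal lay among the CAV1-/- values.

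**Figure D1:**
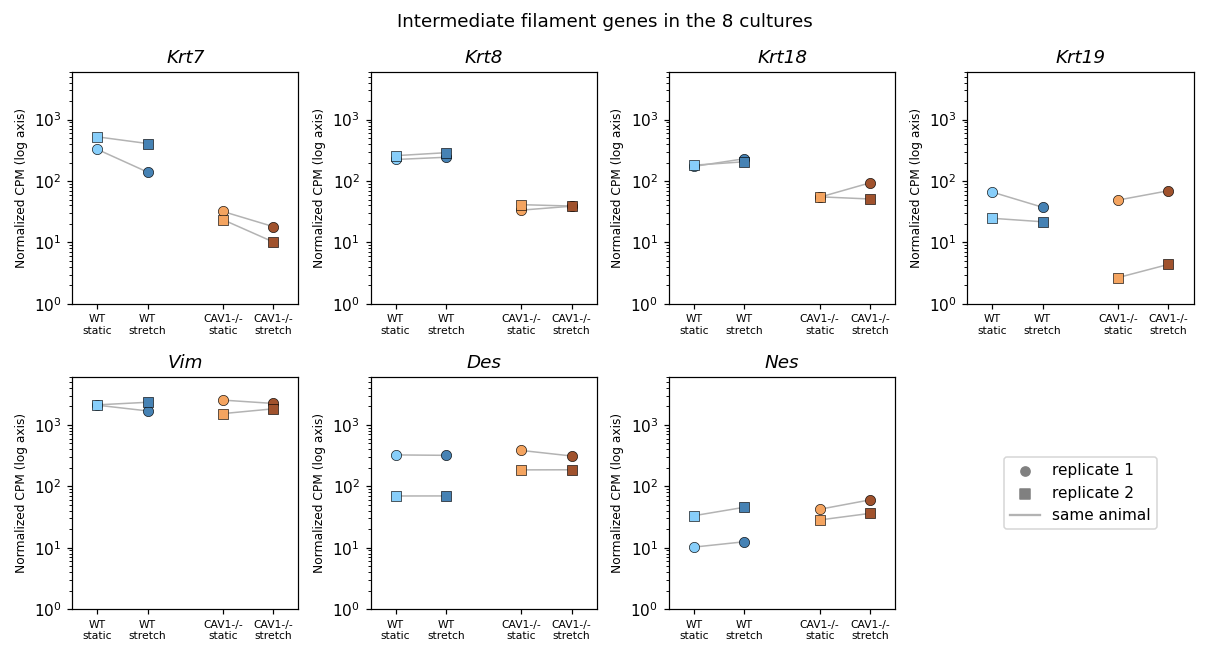
TMM-normalized CPM (log axis, the same in each panel) of the 7 filament genes in the 8 cultures, 1 panel per gene, with grey lines joining the static and stretched culture of an animal. Krt7, Krt8 and Krt18 are lower in all 4 CAV1-/- cultures, Vim is level across the groups, and Krt19, Des and Nes are separated by animal.

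Levels of different genes were then compared per kilobase of exon, the union of exons in GENCODE M21, since longer transcripts gather more reads. On this scale Vim was the highest of the 7 in every library, at 322 to 534 CPM per kb, and ranked between 69 and 142 of 13597 genes with a length. Krt8 ranked between 290 and 393 in WT but between 2317 and 2844 in CAV1-/- cultures. Krt18 ranked between 290 and 375 in WT and between 732 and 1349 in CAV1-/- cultures.
Krt7 ranked between 590 and 2488 in WT and between 7224 and 10302 in CAV1-/- cultures. Nes was the lowest of the 7 in all 4 WT cultures per kb, at 1.59 to 7.09 CPM per kb, whereas Krt7 or Krt19 was lowest in each CAV1-/- culture, at 1.44 to 4.52 CPM per kb. Krt8 and Krt18 traded places between WT libraries, at 115 to 148 and 120 to 161 CPM per kb, so that their order in WT was within the spread of the cultures. Krt7 also traded places with Des, being below it in both cultures of WT animal 1 and above it in both of WT animal 2, and was just below Krt19 in WT stretch 1 (19.8 against 20.1 CPM per kb).

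The 4 keratins together summed to 317 and 346 CPM per kb in static and 325 and 361 CPM per kb in stretched WT cultures. In CAV1-/- cultures the sum was 86.0 and 64.3 CPM per kb when static and 125 and 59.2 CPM per kb when stretched. The vimentin-type sum was 530, 470, 443 and 518 CPM per kb in the WT cultures in the same order, and 643, 376, 563 and 440 CPM per kb in the CAV1-/- cultures. The keratin sums of the genotypes thus did not overlap, and the vimentin-type sums did.
As a share of the 7-gene sum per kb, keratins made up 37.4% to 42.4% in WT and 11.8% to 18.1% in CAV1-/- cultures. The group means were 39.9% ± 3.49 in static WT, 41.7% ± 0.909 in stretched WT, 13.2% ± 1.99 in static CAV1-/- and 15.0% ± 4.44 in stretched CAV1-/- cultures (SD, n = 2 each). With the longest transcript as the length these means became 32.5%, 33.1%, 9.41% and 10.6%, and without division by length 27.7%, 25.9%, 5.99% and 6.32%, so their size depends on the lengths used. The ratio of Vim to Krt8 per kb was 2.86 to 3.86 in WT and 15.3 to 31.2 in CAV1-/- cultures. These sums and shares are descriptions, with no test.

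**Figure D2:**
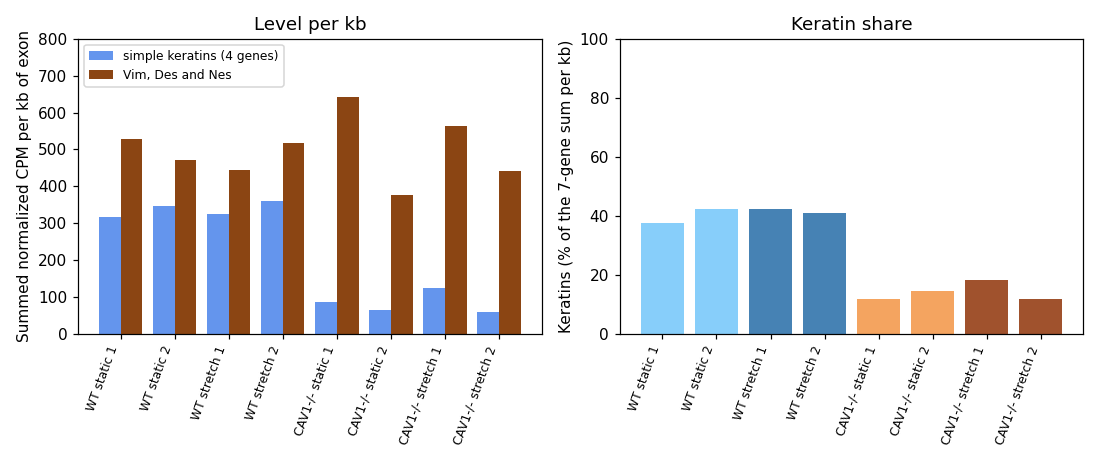
Left, summed CPM per kb of exon of the 4 keratins (blue) and of Vim, Des and Nes (brown) in each of the 8 cultures; right, the keratin share in percent of the 7-gene sum. The keratin share lies between 37.4% and 42.4% in the 4 WT cultures and between 11.8% and 18.1% in the 4 CAV1-/- cultures, while the vimentin-type sums of the genotypes overlap.

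Within the keratins, the chains did not differ by genotype in the same proportion. The sum of type I chains over the sum of type II chains per kb was 0.969 and 0.675 in static and 1.25 and 0.754 in stretched WT cultures. In CAV1-/- cultures it was 2.97 and 1.64 when static and 4.56 and 1.77 when stretched. For these 4 keratins the ratio was above 1 in every CAV1-/- culture and did not overlap between the genotypes. With Krt14, a further type I keratin described below, counted in (added after seeing the data), it was 1.00 to 1.64 in WT and 1.78 to 4.70 in CAV1-/- cultures. On these lengths all WT cultures thus came to 1 or above, and the gap between the genotypes became small. The size of these ratios depends on the lengths used, since Krt7 has 7049 bases as a union of exons and 4094 in its longest transcript. Other lengths were not tried for them, so their place above or below 1 is not settled.
The classic pair alone also differed in proportion between the genotypes. Krt18 over Krt8 per kb was 0.954 to 1.29 in WT and 1.78 to 3.27 in CAV1-/- cultures. Krt18 made up 36.4% to 49.4% of the 4-keratin sum per kb in WT and 44.1% to 59.9% in CAV1-/- cultures, whereas Krt7 made up 6.10% to 21.5% in WT and 2.06% to 5.26% in CAV1-/- cultures. Krt19 took 30.7% and 29.97% of the sum in the cultures of CAV1-/- animal 1 but only 2.24% and 3.99% in those of CAV1-/- animal 2, so the make-up differed between the 2 CAV1-/- animals.

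**Figure D3:**
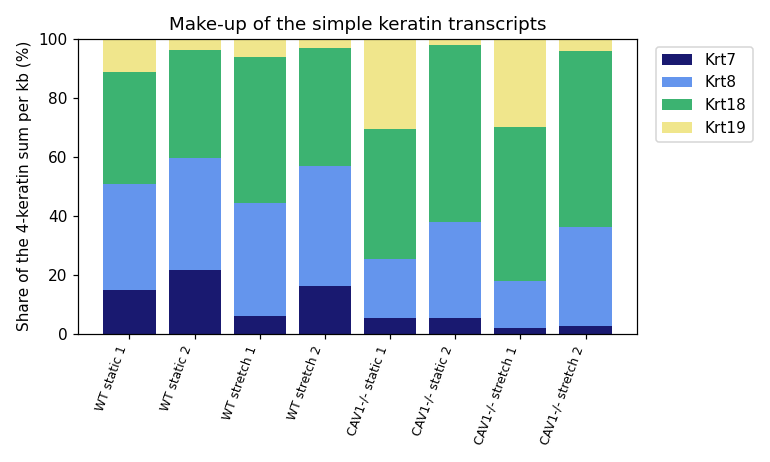
Stacked bars give the share of Krt7, Krt8, Krt18 and Krt19 in the 4-keratin sum per kb (percent) in each of the 8 cultures. Krt8 holds 36.1% to 41.0% in WT and 15.9% to 33.7% in CAV1-/- cultures, and Krt19 holds 30.7% and 29.97% in the cultures of CAV1-/- animal 1 and at most 11.2% in the others.

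CAV1-/- against WT MCs asks how filament transcripts differ by genotype. Krt8 was lower in CAV1-/- MCs in both conditions, and it was the only one of the 7 genes past the adjusted threshold. Its log2 fold change was -2.66 ± 0.15 (SE) without stretch, with an adjusted p of 0.0134 by limma, and -2.74 ± 0.15 with stretch, with an adjusted p of 0.0114. Of all genes tested 0.0732% were called without stretch (0.0659% lower in CAV1-/- cultures) and 0.0585% with stretch (0.0512% lower), beside 1 of 7 filament genes in each comparison.
The main fit had no animal term, so the static and the stretched culture of an animal both counted toward the spread as if independent. With 2 animals per genotype, the adjusted p-values rest on fewer independent units than there were cultures. The call of Krt8 depended on which cultures were in the fit. It was lost with only the 4 libraries of a comparison (adjusted p 0.0813 without and 0.153 with stretch), and with each animal left out (0.0921 to 0.283 and 0.0873 to 0.467). Leaving out 1 culture gave up to 0.186 without stretch, where WT static 1 or 2, CAV1-/- static 1 and CAV1-/- stretch 1 or 2 each ended the call, and up to 0.157 with stretch, where CAV1-/- stretch 1 or 2 and WT stretch 2 did. Its log2 fold change stayed between -2.86 and -2.52 in these fits.

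Krt7 had the widest gap of the 7 genes, with a log2 fold change of -3.87 (95% interval -5.22 to -2.53) without stretch and -4.04 (-5.38 to -2.70) with stretch. Its adjusted p-values by limma were 0.0945 and 0.114, so it did not pass. Krt18 had -1.67 (-2.32 to -1.02) and -1.64 (-2.30 to -0.99), with adjusted p-values by limma of 0.114 and 0.175.
At an unadjusted p of at most 0.05, 3 of the 7 genes (Krt7, Krt8 and Krt18) were lower in each comparison, beside 8.17% of all genes without stretch and 6.26% with stretch in either direction. The same 3 genes had every CAV1-/- culture below every WT culture, as did 5.89% of all genes deposited. No filament gene had every CAV1-/- culture above every WT culture (3.85% of all genes). DESeq2 on the recovered reads called 3 of the 7 genes in both comparisons, and the quasi-likelihood test of edgeR called 1, Krt8. How many of all genes these tests called is not given here, so neither count is read as particular to the filament genes.

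For the other 4 genes the intervals show what 2 cultures a group can resolve. The log2 fold change of Vim was -0.10 (95% interval -0.84 to 0.64) without stretch and 0.02 (-0.71 to 0.76) with stretch. That of Krt19 was -1.61 (-5.46 to 2.23) and -0.60 (-4.45 to 3.25), that of Des 0.82 (-1.53 to 3.17) and 0.68 (-1.67 to 3.03), and that of Nes 0.86 (-0.95 to 2.67) and 0.93 (-0.88 to 2.74). None passed the test. The interval of Vim was the narrowest of the 4 and that of Krt19, whose CAV1-/- animals lay far apart, the widest.

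**Figure D4:**
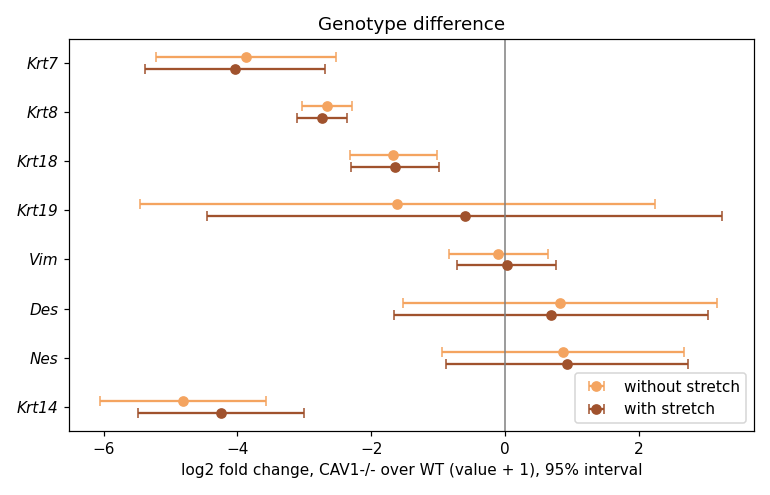
Log2 fold changes (CAV1-/- over WT, on the value + 1 scale) with 95% intervals from limma for the 7 filament genes and Krt14, without stretch (light) and with stretch (dark). Intervals of Krt7, Krt8, Krt18 and Krt14 lie below 0 before adjustment, that of Vim is centred near 0, and those of Krt19, Des and Nes are wide.

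Among other filament genes, a list of 48 keratins had 8 with a row. Of these Krt8 was called lower in both comparisons, and the median log2 fold change of the 8 was -1.64 without and -1.12 with stretch, against -0.01 and 0 over all genes tested. The list contains the 4 keratins described above.
Krt14, a type I keratin of basal epithelial cells, was the keratin with the widest genotype gap. It was at 111 and 119 CPM in static and 98.1 and 165 CPM in stretched WT cultures, and at 1.40 and 6.07 CPM in static and 5.39 and 6.13 CPM in stretched CAV1-/- cultures. No CAV1-/- culture came near a WT culture. The log2 fold change was -4.81 (adjusted p 0.0509 by limma) without and -4.25 (0.0821) with stretch, short of the threshold in both.
The other 3 keratins with a row reached at most 8.57 CPM in any library, and none was called.

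The list of type III and IV genes had 7 of 11 with a row and 6 tested, none of them called, with median log2 fold changes of 0.13 and 0.18. Sync, which encodes the desmin-binding protein syncoilin, was at 42.3 and 17.2 CPM in static WT and 33.4 and 7.40 CPM in static CAV1-/- cultures, and so was separated by replicate rather than genotype. The 3 lamins, filaments of the nuclear envelope, were not called either. Lmna, which encodes lamin A and C, was at 620 to 858 CPM in WT and 696 to 751 CPM in CAV1-/- cultures, with a log2 fold change of -0.24 without stretch, beside -0.13 for Lmnb1 and -0.19 for Lmnb2.

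Of 18 plakins and filament linkers, which tie filaments to junctions and to other parts of the cytoskeleton, 15 had a row and none was called, with median log2 fold changes of -0.18 and 0.25. Evpl, which encodes envoplakin, was the one of them with no overlap and was chosen after its values were seen. It was at 5.18 to 8.69 CPM in WT and 0.164 to 1.31 CPM in CAV1-/- cultures, with a log2 fold change of -2.24 in both comparisons (adjusted p 0.130 and 0.205 by limma). Jup, which encodes plakoglobin, a junction protein to which keratins are anchored through desmoplakin, had log2 fold changes of -0.77 and -0.58, Plec, which encodes plectin, of -0.44 and 0.37, and Tchp, which encodes a keratin-binding protein, of -0.42 and -0.17.

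Krt8 and Krt18 are neighbours, and 23697 bases separate their ends on chromosome 15, with Krt7 a further 566384 bases from Krt8. Within 100000 bases of this pair, 3 other genes had a row. Eif4b, a translation initiation factor, had log2 fold changes of -0.05 without and -0.01 with stretch, Spryd3 of -0.05 and -0.07, and Tns2, which encodes tensin 2, of -0.50 and -0.45. None was called. These neighbours were looked up after the keratin values had been seen. In GENCODE, Krt7 overlaps the antisense gene Gm671, Krt8 the non-coding gene Gm36026 and Des the antisense gene Gm15179, none of which had a row, and Krt8 has the processed pseudogene Krt8-ps. The library kit is not described as strand-specific, so reads of such pairs cannot be told apart.

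The genes closest to each filament gene in their pattern over the 8 libraries were found by the root mean square (RMS) difference of centred log2 values, among 10796 genes with a mean of at least 5 CPM. This is a description, and all 8 libraries share their animals in pairs. For Krt7 they were Lsr, which encodes a receptor of tricellular junctions (RMS 0.34), Rcan2 (0.52) and Myo5b (0.52). For Krt8 they were Folr1, which encodes a folate receptor (0.33), Crip1 (0.34) and Prss12 (0.37), and for Krt18 they included the water channel gene Aqp5 (0.23) and Map3k9 (0.32).
Among the 7 genes themselves the closest pair was Krt8 and Krt18 (RMS 0.59), followed by Vim and Nes (0.73), and the farthest Krt7 and Des (2.67). Lsr was at 28.1 and 41.7 CPM in static and 16.0 and 27.8 CPM in stretched WT cultures, and at most 2.06 CPM in CAV1-/- cultures. Krt19 was nearest to Cystm1 (0.31), C1qtnf3 (0.56) and 9930111J21Rik2 (0.58). Cystm1 was, like Krt19, lowest in the cultures of CAV1-/- animal 2, at 2.16 and 2.41 CPM.
Des was nearest to Car6 (0.24), Tspan2 (0.29) and Fam162a (0.30), and Nes to Angptl2 (0.18), Cotl1 (0.19) and Pla1a (0.21). Angptl2, which encodes a secreted angiopoietin-like protein, was at 53.7 and 70.2 CPM in WT animal 1 and at 173 to 289 CPM in the other 3 animals.

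Markers of the cell types in the cultures moved with some of these results. Of the 11 mesothelial markers with a row, 10 had every CAV1-/- culture below every WT culture (all but Wt1), beside 5.89% of all genes deposited. Lrrn4 and Cldn15 were called lower in both comparisons, beside 0.0659% of all genes tested without and 0.0512% with stretch. The median log2 fold change of the 11 markers was -2.47 without and -2.50 with stretch, on the same scale as Krt8. Fibroblast markers summed to 12682 to 17387 CPM in WT and 12513 to 20096 CPM in CAV1-/- cultures, most of it from Col1a1 and Fbln2. All of these markers but Fbln2 were lower in both cultures of CAV1-/- animal 1 than in those of CAV1-/- animal 2. The same order held between WT animal 1 and WT animal 2 for all of them but Fbln2 and Cd34. Pdgfra was at 55.4 and 19.3 CPM in CAV1-/- animal 1 against 706 and 490 CPM in CAV1-/- animal 2. Dcn was at 142 and 42.6 against 804 and 713 CPM. The part of these lists in the keratin difference was not tested.
Leukocyte markers (11 with a row) summed to 4690 and 4731 CPM in the cultures of CAV1-/- animal 1, against 79.9 to 462 CPM in WT and 300.0 and 332 CPM in CAV1-/- animal 2, and 10 of the 11 were highest in both cultures of CAV1-/- animal 1. Most of the sums in CAV1-/- animal 1 came from Lyz2, at 3648 and 3920 CPM there. Krt7, Krt8 and Krt18 were below every WT culture in the cultures of both CAV1-/- animals, and the part of leukocytes in this was not tested. Leukocytes express Vim, which was at 2533 and 2234 CPM in CAV1-/- animal 1 and 1527 and 1826 CPM in CAV1-/- animal 2; the part of leukocytes in this was not tested.

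Des, a muscle gene, was set beside muscle markers. Smooth muscle and pericyte markers (9 with a row) summed to 8130 and 7211 CPM in WT animal 1, 5170 and 4474 CPM in WT animal 2, 10972 and 8902 CPM in CAV1-/- animal 1 and 6093 and 5763 CPM in CAV1-/- animal 2. The animals had the same order in their mean Des value. Acta2 and Tagln, which made up most of each sum, and Myh11, Cnn1 and Mcam had this order of animals too. Cspg4, Pdgfrb, Notch3 and Smtn did not. Pdgfrb was at 37.2 and 62.9 CPM in WT animal 1 but at 204 and 261 CPM in WT animal 2. Of 10 skeletal muscle markers 5 had a row, and Acta1, skeletal actin, was at 190 and 424 CPM in WT animal 1 and 685 and 1231 CPM in CAV1-/- animal 1, but at most 47.9 CPM in the other 2 animals. The other 4 markers reached at most 5.04 CPM in any library and did not share this order of animals. Their part in the Des values was not tested. For Nes, 2 of 10 glial and neural markers had a row. Tubb3, a neuronal tubulin, was at 1.61 and 2.71 CPM in WT animal 1, where Nes was lowest too, and at 4.04 to 21.3 CPM in the other animals. Ncam1, an adhesion molecule, was not lowest there, at 147 and 233 CPM in WT animal 1 against 136 and 160 CPM in WT animal 2.
Endothelial markers (7 of 10 with a row) summed to 58.7 to 121 CPM in WT and 55.9 to 87.9 CPM in CAV1-/- cultures. Of 10 markers of other epithelia 2 had a row, summing to 131 to 228 CPM in WT and 39.2 to 268 CPM in CAV1-/- cultures, almost all of it from Cdh3, P-cadherin.

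Stretch against static asks how 24 h of mechanical stretch changed the filament genes. In neither genotype was any of the 7 genes called by limma, and 0% of all genes were called in either. At an unadjusted p of at most 0.05 there were 0 of the 7 genes, beside 2.27% of all genes in WT and 2.09% in CAV1-/- MCs, and edgeR and DESeq2 called none of the 7. These tests have no animal term. With the animal as a block, limma gave Krt7, Krt19 and Nes an unadjusted p of at most 0.05 in both genotypes. The same held for 1979 of all 13665 genes in WT and 1824 in CAV1-/- MCs, and none of the 7 passed after adjustment. Depth followed stretch, since each of the 4 static libraries held fewer reads than any stretched one, and the effects of depth and stretch cannot be told apart in this design.
Within each animal, however, Krt7 was lower on stretch in 4 of 4 animals. As a share of the static culture, the stretched culture held 42.6% and 77.7% for WT and 56.7% and 43.4% for CAV1-/- animals. Nes was higher in 4 of 4 animals, at 122% and 137% of static in WT and 142% and 128% in CAV1-/- animals.
Krt18 was higher in 3 of 4 animals, with log2 changes of 0.41 and 0.18 in WT and 0.76 and -0.12 in CAV1-/- animals. Krt8 changed by at most 0.21, Des by at most 0.30 and Vim by at most 0.31 on the log2 scale in any animal.

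An average stretch effect over the 4 animals, fitted with the animal as a block, was added after these values had been seen. In it Krt7 fell by 0.88 on the log2 scale (SE 0.14, adjusted p 0.0286 by limma) and Nes rose by 0.39 (SE 0.07, adjusted p 0.0493), so that 2 of 7 filament genes passed, beside 2.25% of all genes. The values of the remaining genes were 0.31 (95% interval 0.01 to 0.62, adjusted p 0.224) for Krt18, 0.10 (-0.05 to 0.26) for Krt8, 0.02 (-0.49 to 0.52) for Krt19, -0.02 (-0.28 to 0.24) for Vim and -0.08 (-0.24 to 0.09) for Des. The call of Krt7 was lost without WT animal 1, CAV1-/- animal 1 or CAV1-/- animal 2 (adjusted p 0.0636, 0.109 and 0.0976) and held without WT animal 2 (0.0215). The call of Nes was lost without any 1 animal (0.0617 to 0.148). Neither passed without the block (0.984 and 0.999).

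**Figure D5:**
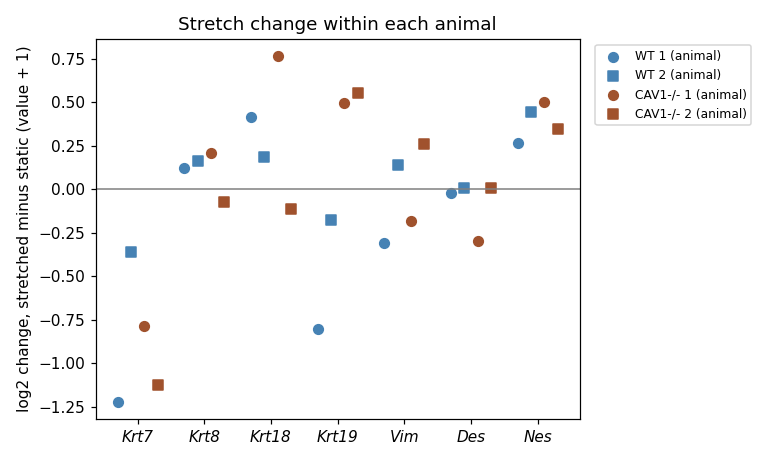
Log2 change from static to stretched culture (value + 1 scale) within each of the 4 animals for the 7 filament genes, with WT animals in blue and CAV1-/- animals in brown. All 4 points of Krt7 lie below 0 and all 4 of Nes above, and for Krt19 the WT animals lie below and the CAV1-/- animals above 0.

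The genotype by stretch interaction asks whether stretch acted differently in CAV1-/- and WT MCs. It called 0 of the 7 genes and 0% of all genes by limma. At an unadjusted p of at most 0.05 it gave 0 of the 7, beside 0.483% of all genes, and edgeR and DESeq2 called none of the 7. The interaction of Krt8 was -0.07 (95% interval -0.60 to 0.46) and that of Krt7 -0.16 (-2.06 to 1.73) on the log2 scale. Krt19 was the one gene of the 7 in which the 2 animals of WT lay on one side of 0 and those of CAV1-/- on the other. Its log2 changes were -0.80 and -0.18 in the WT and 0.49 and 0.55 in the CAV1-/- animals. Its interaction of 1.01 had an interval of -4.43 to 6.46 in this fit, which has no animal term. With the animal as a block, limma gave Krt19 an unadjusted p of 0.00416 and an adjusted p of 0.947. In that blocked fit 581 of all 13665 genes had an unadjusted p of at most 0.05.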

How the data were processed

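Gene expression was measured by RNAseq of poly(A) RNA in 8 libraries of primary MCs. Per the labels and the methods of the study, the authors used Cutadapt for trimming, RSEM on the mouse GRCm38 transcriptome for estimated counts per gene, and the TMM factors of edgeR for scaling. The deposited signal is TMM-normalized CPM for 13687 genes. Its values are whole multiples of 1 read within 0.01 (100% of values), which gave 9777738 to 21203938 reads per library.

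Genes at 1 or more in at least 2 libraries were tested (13665; 22 removed). All 8 libraries were fitted by limma (3.58.1, in R 4.3.3), each group having its own mean, on log2(value + 1) with an intensity trend, no replicate block and 4 residual degrees of freedom. Alternatives were other pseudocounts, filters and normalizations, edgeR (4.0.16) and DESeq2 (1.42.0) on the recovered reads, replicate blocks and cultures left out. The tests were also run on simulated data, with smaller differences between animals than Krt19 and Des had here. No result rests on that run.

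The members and gene lists were chosen with earlier results of these data known. Named beside the 7 genes were Cav1, list genes past the threshold or the 3 with the largest genotype change without stretch at a mean of 5 or more, marker genes that move with a result and the 3 nearest patterns per gene, of which 1 is not reported here. Exceptions are stated. Static and stretched cultures of the same number come from the same animal per the labels, and their deviations from the group means correlated over genes (r 0.703 in WT and 0.850 in CAV1-/-). Positions and exon lengths are from GENCODE M21 and promoters from RefSeq.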

Additional observations from a re-analysis of the deposited data

Results flagged for a closer look

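Krt19 was the one filament gene whose stretch change ran in opposite directions in the 2 genotypes, lower in both WT animals and higher in both CAV1-/- animals. The log2 changes were -0.80 and -0.18 in WT and 0.49 and 0.55 in CAV1-/- animals, and the interaction was 1.01 on the log2 scale. The difference was tested and did not pass (adjusted p 1.00 by limma, 0.947 with the animal as a block). The interaction turned to -0.87 without CAV1-/- static 2 and to -0.84 without CAV1-/- stretch 1. In these fits, which have no block, the remaining static and stretched CAV1-/- cultures came from unequal sets of animals. The CAV1-/- animals differed by 3.74 on the log2 scale in Krt19, so these values include that difference.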

How the results depend on the processing

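Direction by genotype was kept by Krt7, Krt8, Krt18, Nes and Krt14 in every alternative run, both without and with stretch. Of the 7 genes, 1 was called in each genotype comparison. The count became 3 with DESeq2 and 3 at an unadjusted p of at most 0.05 in both comparisons, 0 with only the 4 libraries of the comparison in both, and 0 to 1 with cultures or animals left out. The share of all genes called by DESeq2 is not given beside its count. For genotype the replicate number pairs different animals (r 0.522 static and 0.484 stretched over genes), and a replicate block on it called 3 of the 7 genes (246 of all genes) without stretch, Krt8 with Krt7 (adjusted p 0.0381 by limma) and Krt18 (0.0369), and 1 (110) with stretch. With the animal as a replicate block, stretch and the interaction still called 0 of the 7. The average stretch effect, added after seeing the data, called 2 of 7, 1 with a pseudocount of 5, 0 with eBayes without trend, 0 with no replicate block, and 0 to 1 with an animal left out. The mean keratin share of 39.9% in static WT became 32.5% with the longest transcript, 27.7% with no division by length and 35.2% without Krt7. In stretched WT, 41.7% became 33.1%, 25.9% and 38.84%, and 44.8% without Des. In CAV1-/- cultures, 13.2% became 9.41% and 5.99% when static, and 15.0% became 6.32% with no division by length when stretched. With cultures left out the shares ran from 37.4% to 42.4%, 41.0% to 42.3%, 11.8% to 14.6% and 11.9% to 18.1% in these 4 groups. Reversals: with stretch, the log2 genotype change of Krt19 was 0.32 with edgeR and 0.33 with DESeq2, and that of Vim -0.21 with quantile normalization; the cause was not tested. With cultures or animals left out, the range without stretch was -3.50 to 0.27 for Krt19, -0.46 to 0.27 for Vim and -0.28 to 1.92 for Des. With stretch it was -2.45 to 1.26, -0.21 to 0.26 and -0.41 to 1.77. The stretch change of Nes in WT ran from -0.54 to 1.25, and the Krt19 interaction from -0.87 to 2.90. With 1 culture left out and no block, static and stretched means come from unequal sets of animals, so these ranges include differences between animals. With 2 cultures a group, changes the size of those of Des and Nes could not be resolved.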
